A study of Rattus norvegicus with 14 samples.

Results

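The natriuretic peptide system is described here in the left ventricle of control and diabetic rats through 8 genes: the peptides Nppa (atrial natriuretic peptide, ANP), Nppb (brain natriuretic peptide, BNP) and Nppc (C-type natriuretic peptide, CNP), the receptors Npr1, Npr2 and Npr3, and the proteases Corin and Furin. A member was measured where an Affymetrix probe set, a group of short DNA probes for one transcript, is annotated with that single gene symbol. Of the 8 genes, 7 had such a probe set, 1 each, among 31042 probe sets tested and 14217 genes with a probe set of a single symbol. Corin is not analysed here. All animals were male Wistar rats. The 7 controls received saline into the tail vein and the 7 diabetic animals 60 mg/kg of streptozotocin, a toxin of the insulin-producing beta cells, both under halothane. Hearts were perfused and the left ventricle was taken after 16 weeks. RNA of each animal was hybridised to its own Rat Genome 230 2.0 array. The labels name neither the animals' age nor their blood glucose, so the diabetic group is defined by the injection and by the name the submitters gave it.

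ANP and BNP are hormones that cardiac myocytes release when the chamber wall is stretched. Both bind Npr1, a receptor whose inner domain makes cyclic GMP, and so promote sodium loss, widen blood vessels and restrain growth of the heart muscle. CNP acts mainly on Npr2, a related cyclase, while Npr3 takes up all of the peptides and clears them. The hormones are made as longer precursors: corin cleaves pro-ANP, and furin is known to cleave pro-BNP. In the adult heart Nppa is made mostly in the atria, and a higher ventricular Nppa level is a common sign of load or hypertrophy.

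Nppb and Nppa are neighbours in the rat genome with 0 annotated genes between them and with start sites 12.2 kb apart on the same strand. The bases before each start are shown because these are the main cardiac peptide genes, lie side by side and had estimates of opposite sign, neither of them called, as described further on. The sequences are from RefSeq on build GRCr8, 250 bases each: Nppb lies before the start at chr5:163699758-163700007 on the plus strand, and Nppa at chr5:163711934-163712183 on the plus strand. Capitals mark matches to 4 motifs. A GATA factor site was searched as GATAA on both strands. The core of an NK2 factor site was searched as AAGTG on both strands. An M-CAT element was searched as CATTCC on both strands. A TATA box was searched as TATAAA on the strand of the gene.
Nppb: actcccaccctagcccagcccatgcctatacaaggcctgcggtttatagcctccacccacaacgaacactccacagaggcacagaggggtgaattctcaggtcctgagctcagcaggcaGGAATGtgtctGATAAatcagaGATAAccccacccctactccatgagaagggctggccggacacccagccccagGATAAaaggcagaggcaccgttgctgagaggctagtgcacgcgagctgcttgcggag
Nppa: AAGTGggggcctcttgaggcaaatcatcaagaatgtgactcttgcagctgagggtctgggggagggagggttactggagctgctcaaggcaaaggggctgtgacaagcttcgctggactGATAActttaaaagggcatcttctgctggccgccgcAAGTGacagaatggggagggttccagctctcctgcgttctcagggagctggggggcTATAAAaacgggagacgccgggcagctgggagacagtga
The Nppb window held 3 GATAA matches and 1 M-CAT match, written here as its reverse complement, and no AAGTG or TATAAA. The Nppa window held 1 GATAA, 2 AAGTG and 1 TATAAA, with no M-CAT match. Neither held an exact CArG box, the site of serum response factor, searched as CC, 6 bases of A or T, then GG. Near matches, such as ctttaaaagg in the Nppa window, were not counted. No marked motifs overlapped. Over the 250 bases before the start of 33469 rat promoters, GATAA was present in 23.5%, AAGTG in 40.6%, the M-CAT letters in 12.1%, TATAAA in 8.06% and a CArG box in 1.5%. These matches are descriptions of the sequence and not measured binding sites. Of the 8 members, 6 had a promoter entry in the table used, and the others were Npr2 and Furin.

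Signals are given as log2(scaled signal + 50), where the deposited signal of every array was scaled to the same trimmed mean, and differences are diabetic minus control on that log2 scale, so they understate the change of dim genes. The median deposited signal ran from 14.8 to 85.3, and control 3, control 5 and diabetic 1 were the dimmest. The array's own controls (RNA spikes and beta-actin) were used to cut the 14 arrays into 3 classes. These are A (2 control and 2 diabetic arrays), B (2 and 2) and C (3 and 3). Cuts were placed at the largest gap in spike signal and then, outside class C, in the beta-actin signal ratio of opposite transcript ends. The number of classes was thus set by the rule. Class C was not cut by that ratio, whose log2 ran from 0.67 to 1.47 there, 1.41 to 1.71 in A and 0.67 to 0.84 in B. The labels give no batches, and what the classes stand for was not tested. Genes listed as ventricular myocyte markers, among them Myl2, Myh6 and Tnni3, were bright on average on every array. The mean over these 6 genes was 13.41 ± 0.058 (SD, n = 7) in controls and 13.42 ± 0.052 in diabetic animals. This mean averages differences of both signs. Myl2, Myl3, Tnni3 and Myh6 differed by -0.0085, -0.082, -0.098 and -0.22, and Irx4 and Hey2 by 0.22 and 0.27.

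None of the 7 measured members passed an adjusted p of 0.05 in limma with Benjamini-Hochberg adjustment over all 31042 probe sets, against 1.14% of all probe sets (354). At an unadjusted p under 0.05, 1 of the 7, Nppa, passed, against 9.6% of all probe sets. The groups did not separate fully for any member, against 1.2% of all probe sets. With the array class as a block (2.08% of all probe sets called) and with a robust trended prior (1.74%), 0 members were called as well. The median difference over the 7 members was 0.11, against -0.0022 over all genes. In the left ventricle, fewer cells of a type and less RNA per cell cannot be told apart.

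**Figure D1:**
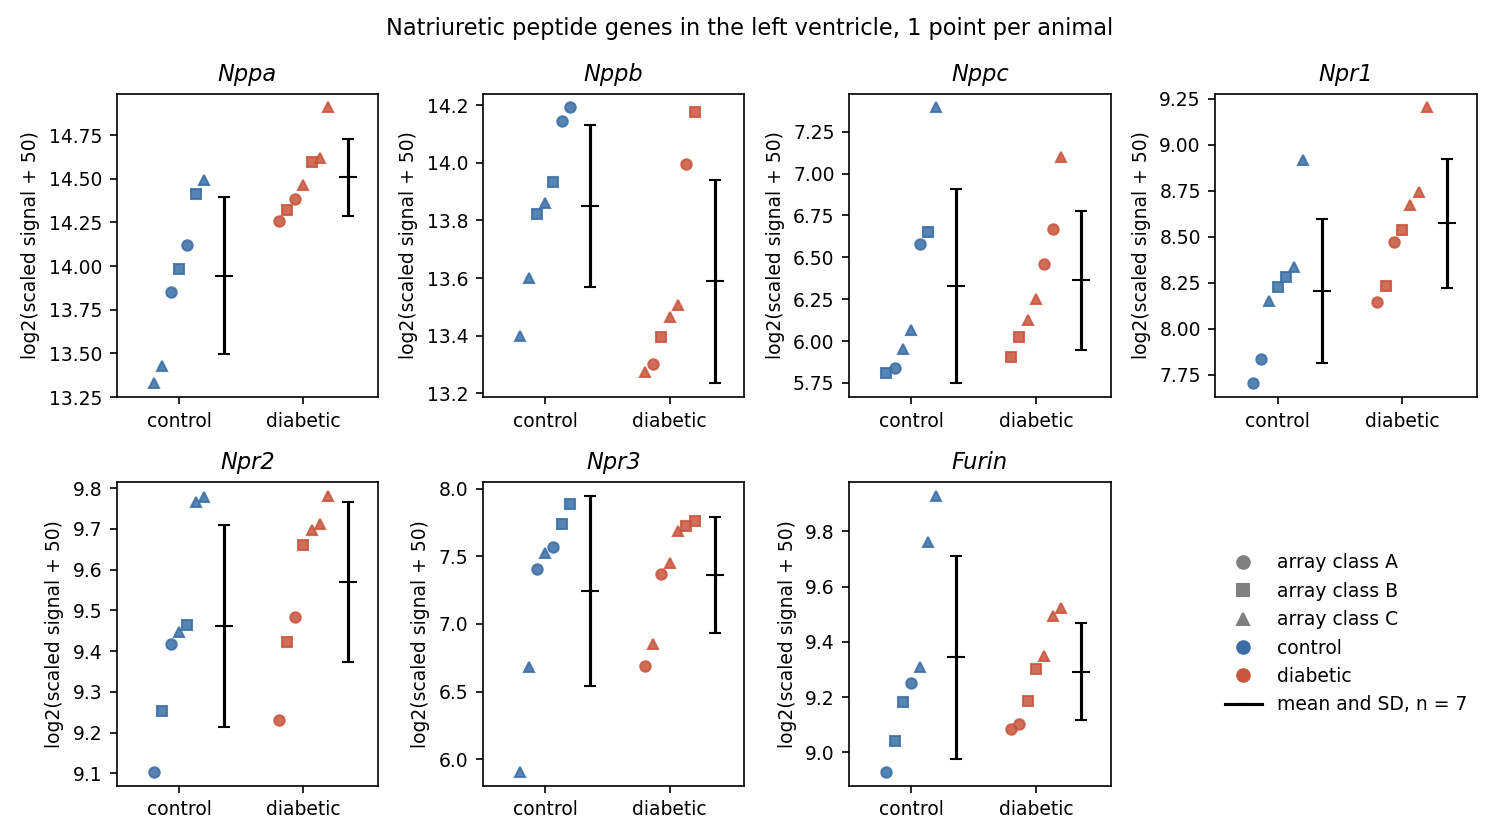
Signal of the 7 measured members on the scale log2(scaled signal + 50), 1 point per animal, with marker shape for the class of the array and bars for mean and SD (n = 7 a group). The vertical axes differ between panels. For Nppa all 7 diabetic points lie above the control median of 13.99, while the points of the groups overlap for every member.

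Nppa was the member with the smallest p. In controls its signal ran from 13.33 through a median of 13.99 to 14.50, and in diabetic animals from 14.26 through 14.47 to 14.91. All 7 diabetic animals lay above the control median, 3 of them lay above every control, and 5 of the 7 controls lay below every diabetic animal. The mean was 13.95 ± 0.45 (SD, n = 7) in controls and 14.51 ± 0.22 in diabetic animals. The difference of 0.56 (SE 0.18) corresponds to 1.48-fold, with a 95% interval of 1.13 to 1.93. Its unadjusted limma p was 0.00756 and its adjusted p 0.237, so it was not called. Within the classes A, B and C the difference was 0.34, 0.26 and 0.91. The controls spread most, with control 6 at 13.33 and control 3 at 13.43 well below the other controls, of which the lowest, control 1, was at 13.85.

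The Nppb estimate had the opposite sign and did not pass the test. Control signals ran from 13.40 through a median of 13.86 to 14.19, and diabetic signals from 13.27 through 13.47 to 14.18. Among diabetic animals 5 of 7 lay below the control median and 3 below every control, while diabetic 2 and diabetic 6 lay apart from these at 14.18 and 13.996. The difference was -0.26 (SE 0.17), a 0.833-fold level with a 95% interval of 0.649 to 1.07 (limma adjusted p = 0.693). Within classes it was -0.52, -0.092 and -0.21.

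Since the estimates of these neighbouring genes had opposite signs, the Nppa minus Nppb signal was compared within each array, which removes any factor that scales a whole array. This pair was chosen with both genes' values known, out of 21 possible member pairs, and the p-values given for it do not allow for that choice, so they describe this pair and are not independent evidence that the genes differ. The level of such a difference depends on the probes, so only its change between groups is read. In controls it ran from -0.34 through -0.026 to 0.63, and in diabetic animals from 0.26 through 1.08 to 1.44. All 7 diabetic animals lay above the control median and 5 above every control. The groups overlapped through diabetic 6 and diabetic 2 on one side and control 4 and control 5 on the other.

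The mean was 0.095 ± 0.35 (SD, n = 7) in controls and 0.92 ± 0.43 in diabetic animals. The means differed by 0.83 on the log2 scale, or 1.77-fold (exact two-sided permutation test over 3432 assignments of the 14 arrays, p = 0.00408; the smallest p possible is 0.000583). Within classes A, B and C the change was 0.86, 0.35 and 1.12, and with labels exchanged only within classes the exact permutation p was 0.00556 over 720 assignments. Both transcripts were near the bright end of the array, brighter than 99.6% and 99.2% of probe sets on average, and whether their probes approached saturation was not tested.

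**Figure D2:**
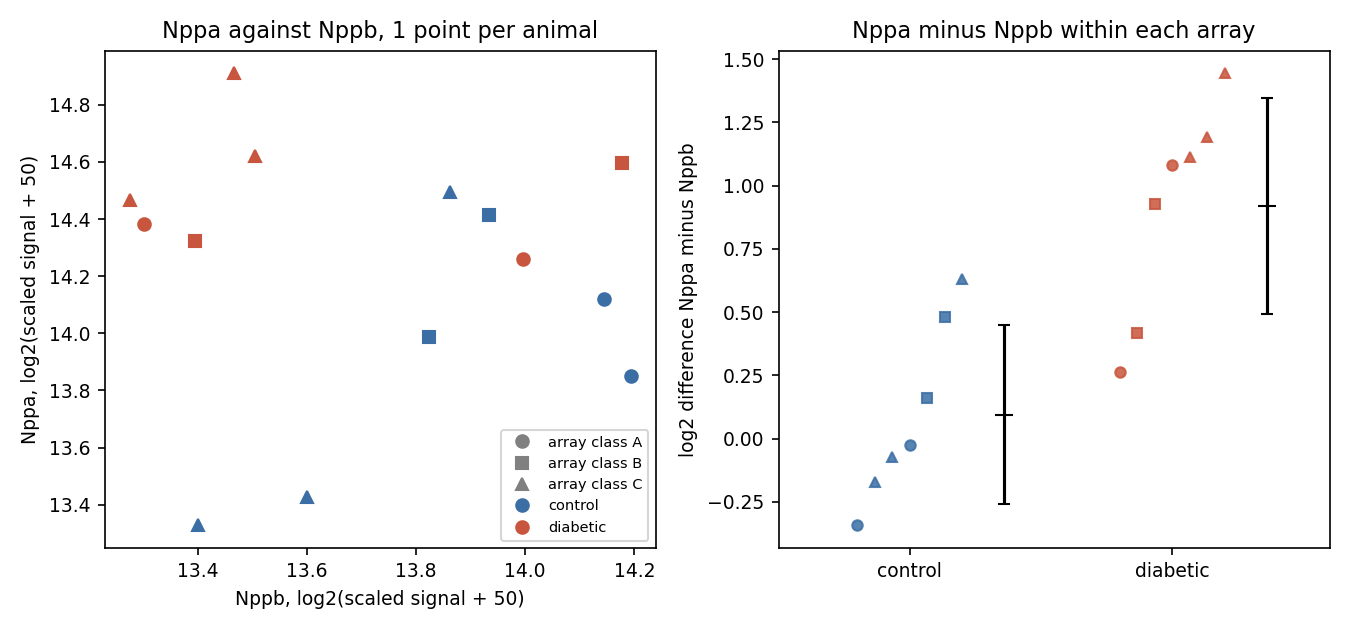
Left, Nppa against Nppb signal, log2(scaled signal + 50), 1 point per animal; right, the Nppa minus Nppb difference within each array by group, with mean and SD (n = 7). Marker shapes are array classes. The diabetic mean of 0.92 lies above every control value, of which the highest is 0.63.

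The receptor that ANP and BNP share, Npr1, had a control range from 7.70 through a median of 8.23 to 8.91 and a diabetic range from 8.15 through 8.54 to 9.20. Among the diabetic animals 6 of 7 lay above the control median, and 1 above every control. The difference of 0.37 (SE 0.19; 1.29-fold, 95% interval 0.973 to 1.71) had a limma adjusted p of 0.588. It was positive within each class, at 0.54, 0.13 and 0.41.

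Npr2, the CNP receptor, had control signals from 9.10 through 9.45 to 9.78 and diabetic signals from 9.23 through 9.66 to 9.78. The groups covered nearly the same range, with a difference of 0.11 (SE 0.13; 95% interval of the fold 0.888 to 1.31; limma adjusted p = 0.879). Npr3, the clearance receptor, ran from 5.91 through 7.53 to 7.88 in controls and from 6.69 through 7.45 to 7.76 in diabetic animals. Control 5, one of the dimmest arrays, was the lowest at 5.91. The Npr3 difference of 0.12 (SE 0.28; limma adjusted p = 0.950) had no steady direction: it was -0.46, -0.069 and 0.62 within classes A, B and C, and -0.11 without control 5. An interval of 0.716 to 1.64 for the fold leaves room for a change of either sign.

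Nppc, known mainly from vessel wall and endothelium, was dim. Its signal ran from 5.81 through 6.07 to 7.40 in controls and from 5.91 through 6.25 to 7.10 in diabetic animals, and 17.6% of probe sets were dimmer on average. Its difference of 0.034 (SE 0.25; fold interval 0.711 to 1.48; limma adjusted p = 0.984) changed sign when control 1, 5, 6 or 7 or diabetic 1 or 6 was left out. Furin ran from 8.93 through 9.25 to 9.93 in controls and from 9.09 through 9.30 to 9.52 in diabetic animals. The Furin difference was -0.052 (SE 0.16; fold interval 0.766 to 1.22; limma adjusted p = 0.964). Control 3 and control 6, at 9.76 and 9.93, were above every diabetic animal, and the same 2 arrays had the lowest Nppa signals.

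**Figure D3:**
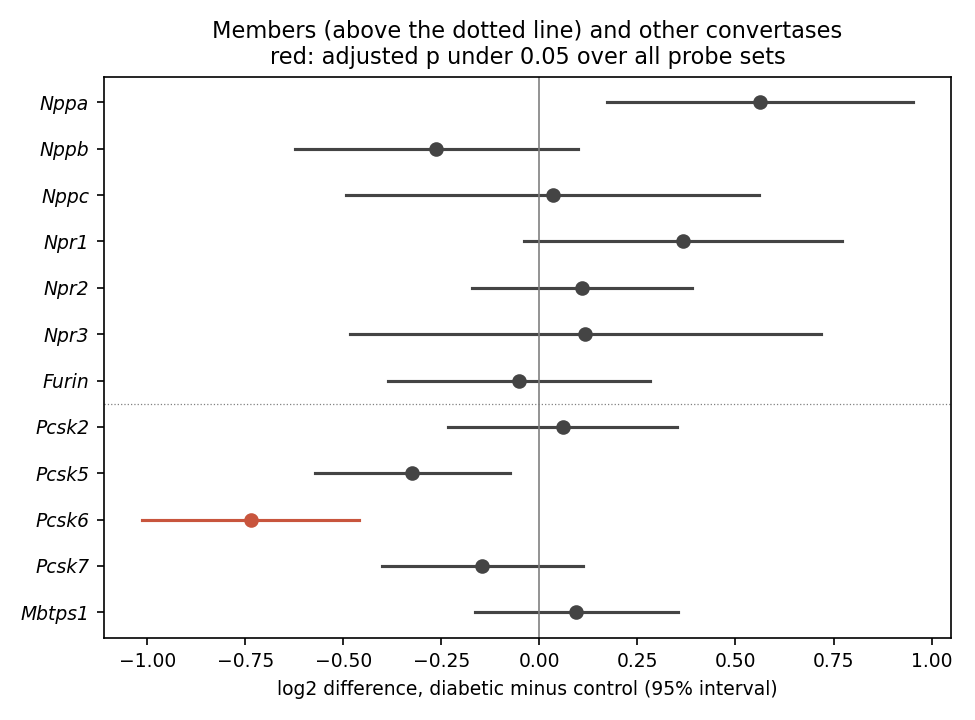
Difference of diabetic minus control (log2, points) with 95% intervals (lines) for the 7 members above the dotted line and 5 other proprotein convertases below it. Only Pcsk6, in red, passed an adjusted p of 0.05 over all probe sets; of the members, only the Nppa interval lies wholly on one side of 0.

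Members were also compared with each other across animals, as deviations from the group mean over 14 arrays. Of 21 member pairs, Npr2 and Furin varied together most: Pearson's r was 0.85 (permutation test within groups, adjusted p = 0.0113 over the 21 pairs) and Spearman's rho 0.83 (permutation test, adjusted p = 0.0269). It was 0.83 without the 2 arrays farthest from the median, 0.91 among controls and 0.77 among diabetic animals. Once class means were removed r was 0.61. Npr1 and Npr2 had r = 0.76 (permutation test, adjusted p = 0.0280), which fell to 0.38 with class means removed, and their adjusted Spearman p was 0.0705. No other pair passed 0.05 by Pearson's r.

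Nppa and Nppb had r = 0.62 among controls and -0.049 among diabetic animals, and the difference was not tested. Neither passed an exact permutation test (adjusted p = 0.490 and 0.915 over 8 planned relations, n = 7 each; rho 0.50 and 0.11; r = 0.63 and 0.62 without the 2 arrays farthest from the Nppb median). Nppa and Npr2, not among the planned relations, had r = -0.78 among controls and 0.73 among diabetic animals. Nppa and Furin had r = -0.75 and 0.60. These contrasts of sign were picked out of the 21 member pairs and were likewise not tested. Over all 14 arrays these pairs had r = -0.34 and -0.49 (permutation test within groups, adjusted p = 0.622 and 0.462). With class means removed r was -0.61 and -0.81, which was not tested. Nppa and Myh7, the slow myosin heavy chain that accompanies Nppa in loaded rodent hearts, had r = -0.19 among controls and 0.45 among diabetic animals (exact permutation tests, adjusted p = 0.792 and 0.491, n = 7 each; rho 0.11 and 0.41; r = 0.77 and 0.29 without 2 arrays). The Myh7 value was the same, 15.32, on diabetic 3, 4 and 5. Spearman's adjusted p lay between 0.711 and 0.840 in all 8 planned relations (exact permutation tests).

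The genes whose deviations were most like those of Nppa, among 9381 genes at or above the median signal, were Gpatch11 (r = 0.88), Tmem107 (0.84), Trpm4 (0.84), Hbegf (0.83) and Kif7 (0.81). For Nppb they were Cox5b (0.89), C1qtnf7 (0.85), Scrn1 (0.83), Washc5 (0.83) and Serpinb9 (0.82). The genes listed for Nppa averaged 7.48 to 7.65, near the lower end of that range, against 14.23 for Nppa itself. Both lists hold only the highest of 9381 correlations, so high values are selected, and none was tested. Both lists share 14 arrays and their brightness, and none of the 10 genes was called between groups.

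Because Nppa is an atrial transcript, markers of atrial muscle were examined beside it. Of 9 measured atrial genes 1 was called, Dkk3 (a secreted Wnt-pathway protein), with a difference of 0.69 (SE 0.15; limma adjusted p = 0.0321). All 7 diabetic animals were above all controls for Dkk3, but its 3 dimmer probe sets were not called (0.60, 0.35 and 0.047). The difference was 0.60 to 0.76 with each animal left out, and the call was lost without any one of control 3, 4, 6 or 7 or diabetic 1, 2, 3, 5 or 7 (highest limma adjusted p = 0.0794). Myl7, the atrial myosin light chain, ran from 8.50 to 14.18 in controls and from 8.80 to 13.83 in diabetic animals. Myl4 and Sln also varied widely in both groups. Nr2f2, Kcna5, Kcnj3, Gja5 and Pam varied less, with SDs from 0.075 to 0.42 within groups. Nr2f2 and Gja5 both differed by 0.39 (unadjusted limma p 0.0205 and 0.0342), Kcnj3 by 0.10, Kcna5 by -0.042 and Pam by -0.21. None of these was called, and the list median was 0.39.

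The mean over the 9 genes ran from 9.26 to 10.83 in controls and from 9.64 to 11.01 in diabetic animals, a difference of 0.52 (exact two-sided permutation p = 0.115, n = 7 each). The dimmest of the 9, Kcna5, averaged 7.71. The relation of Nppa to this mean was positive in controls (r = 0.66, rho 0.39, 0.79 without 2 arrays) and negative in diabetic animals (r = -0.53, rho -0.36, -0.25 without 2 arrays), and neither passed an exact permutation test (adjusted p = 0.490 for both, n = 7 each). The relation of Nppb to it also did not pass (r = 0.30 and 0.50, rho 0.21 and 0.46, r = 0.87 and 0.29 without 2 arrays, exact permutation test, adjusted p = 0.672 and 0.490, n = 7 each).

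With the atrial mean as a covariate the differences were 0.48 (SE 0.20) for Nppa, -0.38 (SE 0.18) for Nppb and 0.50 (SE 0.21) for Npr1. The unadjusted limma p was then 0.0349 for Nppa, against 0.00756 without the covariate, 0.0536 for Nppb, against 0.141, and 0.0295 for Npr1, against 0.0733, and none was called. The Nppa minus Nppb change was 0.86 in the same model (permutation of the group labels with the atrial mean kept on its array, p = 0.00466). This p is approximate and not exact, because the atrial mean was itself 0.52 higher in the diabetic group.

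**Figure D4:**
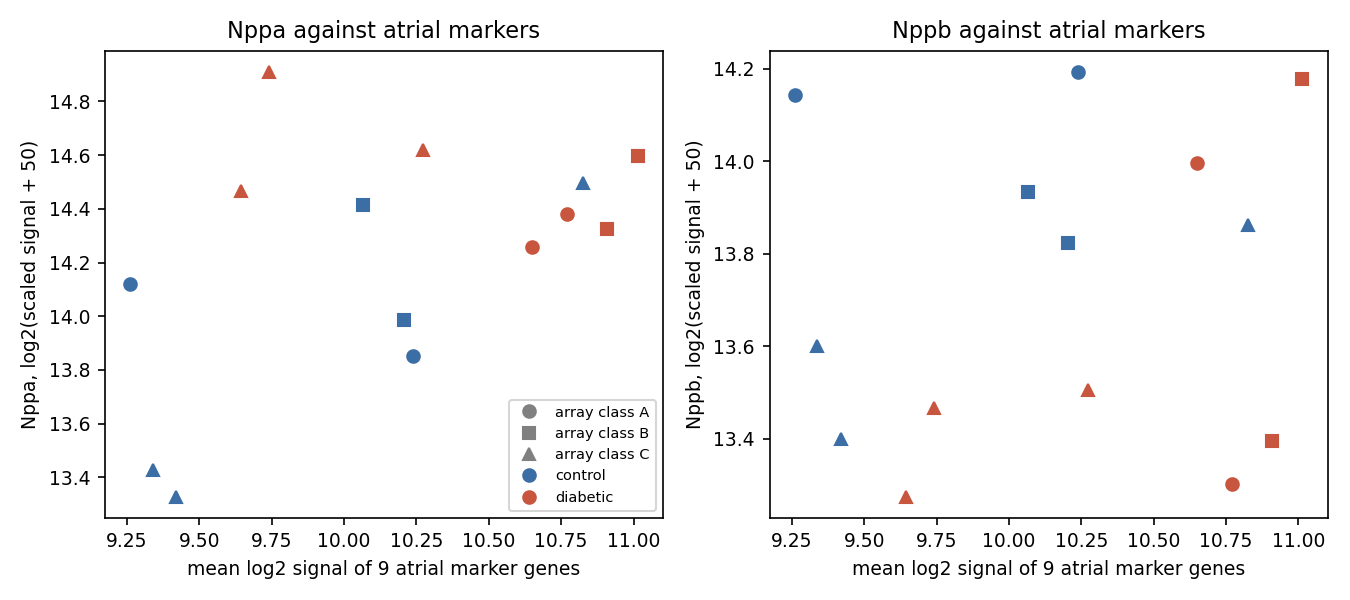
Nppa (left) and Nppb (right) signal, log2(scaled signal + 50), against the mean log2 signal of 9 atrial marker genes, 1 point per animal, colour for group and shape for array class. The groups overlap along the horizontal axis: the atrial mean covers 9.26 to 10.83 in controls and 9.64 to 11.01 in diabetic animals.

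Around the members, 9 lists of genes held 89 genes, of which 83 were measured: other cyclic GMP makers, effectors, phosphodiesterases, peptide-degrading enzymes, convertases, granule proteins, transcription factors of the peptide genes, guanylin-type ligands, and load genes. Of the 83, 0 were called higher and 1 lower, against 1.72% of all 14217 genes. At an unadjusted p under 0.05 there were 6 higher and 8 lower, against 11.5% of all genes (over all probe sets, 4.73% were higher and 4.87% lower). The median difference was 0.019 over the 83 genes and -0.0022 over all genes.

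The gene called was Pcsk6 (PACE4), a proprotein convertase known to activate corin, the pro-ANP protease. Its signal ran from 11.27 through a median of 11.38 to 11.56 in controls and from 10.26 through 10.69 to 11.04 in diabetic animals. All 7 diabetic animals lay below all 7 controls. The mean was 11.41 ± 0.11 (SD, n = 7) in controls and 10.67 ± 0.29 in diabetic animals, so Pcsk6 fell by 0.74 (SE 0.13), to 0.601-fold with a 95% interval of 0.496 to 0.728 (limma adjusted p = 0.00734). The fall was present in each class, at -0.94, -0.48 and -0.77. Without the 3 dimmest arrays it was -0.73 with a limma adjusted p of 0.0503, just short of the threshold. It rests on a single probe set.

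The other 4 measured convertases were not called. Pcsk5, a secreted relative, had the next smallest p, with a difference of -0.32 (SE 0.12; limma adjusted p = 0.319) and all 7 diabetic animals below the control median. Its 2 dimmer probe sets differed by 0.0038 and 0.32, so the probe sets disagree. Pcsk7 differed by -0.15, Mbtps1 (site-1 protease) by 0.094 and the dim Pcsk2 by 0.059.

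**Figure D5:**
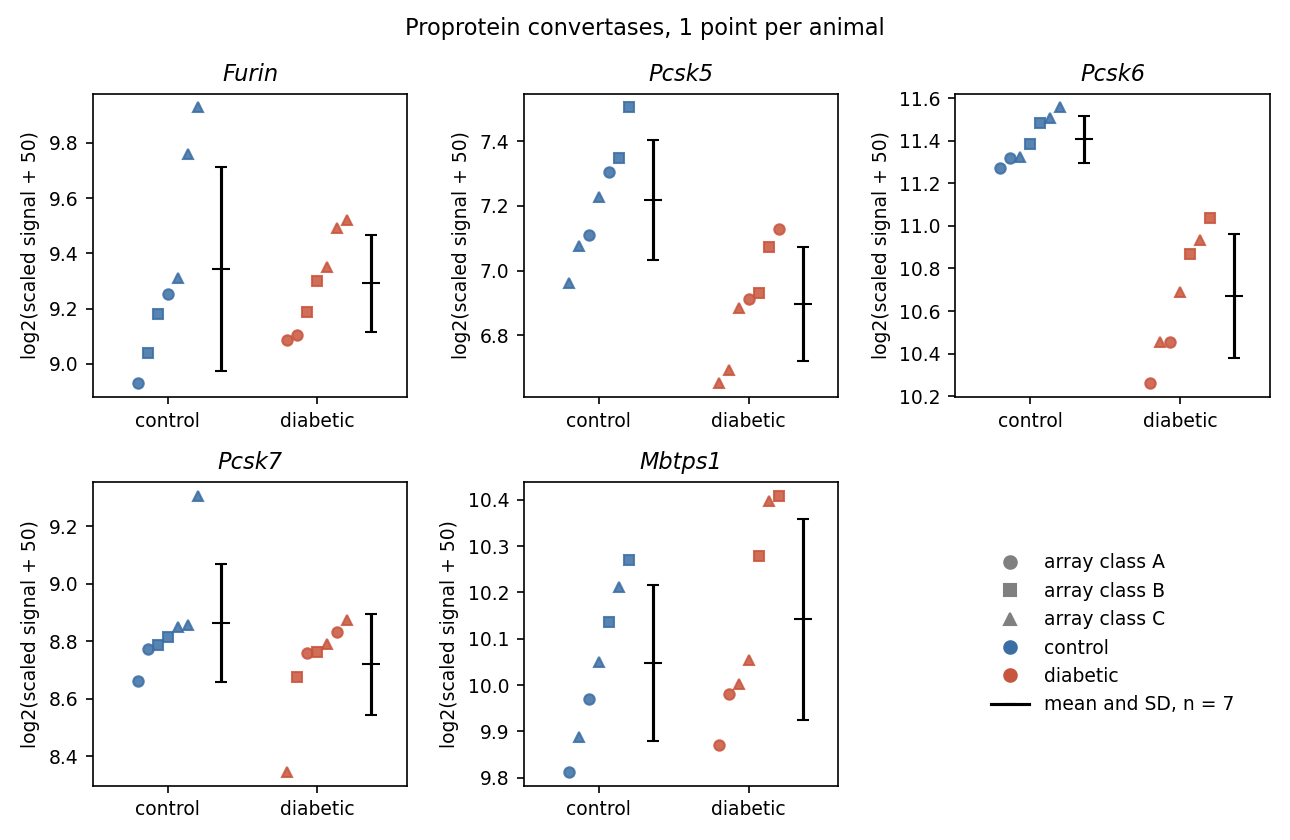
Signal of Furin and 4 other convertases, log2(scaled signal + 50), 1 point per animal, with array class as marker shape and bars for mean and SD (n = 7). The vertical axes differ between panels. For Pcsk6 the lowest control, at 11.27, lies above the highest diabetic animal, at 11.04.

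Among the 8 genes that make cyclic GMP apart from the natriuretic receptors, 0 were called. Gucy1a1, a subunit of the nitric oxide receptor, was at 10.28 to 10.59 in controls and 10.50 to 10.85 in diabetic animals. The Gucy1a1 difference was 0.31 (SE 0.098; limma adjusted p = 0.227), with 6 of 7 diabetic animals above every control, and its dimmer probe set differed by 0.39. Its partner Gucy1b1 differed by 0.045, and the endothelial nitric oxide synthase Nos3 by -0.11.

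Of 11 measured effectors 0 were called. Rgs2, a brake on G-protein signals that cyclic GMP-dependent kinase activates, ran from 9.14 to 10.63 in controls and from 9.61 to 11.30 in diabetic animals. Its difference was 0.75 (SE 0.25; limma adjusted p = 0.254), and 6 of 7 diabetic animals were above the control median. Its second probe set differed by 0.80 (limma adjusted p = 0.102). Its relative Rgs4 differed by -0.28 on the brighter and 0.13 on the dimmer probe set, and the potassium channel gene Kcnma1 by 0.52, -0.042 and -0.58 on 3 dim probe sets, so the probe sets of both genes disagree and none was called. Phospholamban (Pln), a kinase target in the calcium store, differed by 0.0076.

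None of 10 measured phosphodiesterases, which break down cyclic nucleotides, was called. Pde1b differed by 0.59 (SE 0.23; limma adjusted p = 0.374), Pde2a by 0.21 and the cyclic GMP-specific Pde5a and Pde9a by 0.055 and 0.047. None of 9 peptide-degrading enzymes was called. Dpp4, which trims BNP, had the smallest p there, with a difference of -0.55 (SE 0.19; limma adjusted p = 0.271) and all 7 diabetic animals below the control median, while its dimmer probe set differed by -0.16. Neprilysin (Mme) differed by 0.016 and the insulin-degrading enzyme Ide by 0.066.

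None of 8 granule genes was called. Pam, an abundant membrane protein of atrial granules that is also among the 9 atrial genes, differed by -0.21 (SE 0.092; limma adjusted p = 0.451), although its 7 diabetic values, from 13.76 to 14.07, were all below its control values, from 14.13 to 14.32. Of 20 measured transcription factors and cofactors 0 were called. Gata4 differed by -0.026, Nkx2-5 by 0.058, Tbx5 by 0.19, Srf by 0.094 and Rest, a repressor of both peptide genes, by -0.54 (SE 0.29). The dimmer probe sets of Gata4 and Rest had the opposite sign, at 0.12 and 0.086, and those of Srf were at -0.030 and 0.39. The factor with the smallest p was the cofactor Fhl2, at -0.20 (limma adjusted p = 0.502).

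The guanylin-type ligands Guca2a and Guca2b were dim and differed by 0.67 and -0.42 without a call. Of 10 measured load genes 0 were called. Myh7 came nearest, at 0.39 (SE 0.10; limma adjusted p = 0.0968), with 6 of 7 diabetic animals above every control and 1.09 on its dimmer probe set (limma adjusted p = 0.170). It was called in 6 of 29 other settings. Its value was 15.32 on each of diabetic 3, 4 and 5, whose scaled signals were 41266, 34536 and 46870. Quantile normalisation gave these the same rank value, so differences of the brightest probe sets can be understated. Myh6, the fast heavy chain, differed by -0.22 (SE 0.087; limma adjusted p = 0.367), with all 7 diabetic animals below all controls, and by -1.22 on its dimmer probe set (limma adjusted p = 0.222). Of the others, Ankrd1, a stretch-responsive gene, differed by -0.029 and skeletal actin Acta1 by -0.29.

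Markers of the other cell types of the ventricle gave 1 call, Cfd (the adipokine adipsin) in the fat cell list, at 1.23 (SE 0.16; limma adjusted p = 0.000502), while Adipoq differed by 0.36 without a call. The other fat cell genes, Cidec, Plin1 and Lep, differed by 0.15, 0.046 and -0.055, and the median of the fat cell list was 0.15. No ventricular myocyte, endothelial, endocardial, fibroblast, smooth muscle, macrophage, red cell or Schwann cell marker was called. In the list for endocardium, where Npr3 is strong, Nfatc1 and Vwf differed by 0.30 and 0.57 with unadjusted limma p of 0.0149 and 0.0229. Hapln1 and Plvap of that list differed by 0.18 and 0.090 (unadjusted limma p 0.359 and 0.805). Vwf is also in the endothelial list, where Kdr, Tek, Pecam1 and Emcn differed by 0.18, 0.12, 0.084 and 0.052 and Tie1 by -0.32. Among 4 macrophage genes 2 had an unadjusted limma p under 0.05, Cd163 at 0.71 (p 0.00717) and Cd68 at 0.59 (p 0.0206), and all 7 diabetic animals lay above the control median for both. The list median was 0.40. The genes of smallest p in the remaining lists were Pdgfra (fibroblast) at 0.27, Tagln (smooth muscle) at 0.42, Alas2 (red cell) at 0.56 and S100b (Schwann cell) at 0.27, with unadjusted limma p of 0.0895, 0.102, 0.0787 and 0.208. Pdgfra and Tagln do not stand for their lists, whose medians were -0.0037 (fibroblast) and 0.017 (smooth muscle). Col1a2, Tcf21 and Lum differed by -0.16, -0.11 and -0.0082, and Col1a1 and Dcn by 0.0095 and 0.00088. In smooth muscle, Des and Cnn1 differed by -0.15 and -0.044, and Myh11 and Acta2 by 0.25 and 0.017. The part of these cell types in the members' values was not tested.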

How the data were processed

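Left ventricular RNA (5 µg of total RNA per animal, 1 of 2 kits, per the labels) was hybridised to 14 arrays. The description of the diabetic samples mentions saline, but their titles and protocol say diabetic and streptozotocin, which was followed. Deposited values are linear intensities, 1 for each probe set on each array. Per the submitters' processing notes, MAS5, RMA, affy and limma were used, with no role or version given.

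Of 31099 probe sets, 57 array controls were left out. Intensities were scaled to a trimmed mean of 500 after trimming the outer 2% on both sides. After adding 50 and converting to log2, arrays were quantile normalised. limma 3.58.1 in R 4.3.3 (lmFit, eBayes, group only, two-sided) was run on 31042 probe sets, with Benjamini-Hochberg adjustment and a threshold of 0.05. A gene stands for its brightest probe set. Of the tested probe sets, 20826 had 1 symbol, 436 several and 9780 none. Single values were tested by exact permutation, and the 21 member pairs by permutation within groups. Named beyond the members were the called genes, up to 4 genes of smallest p of a pathway list and up to 2 of a marker list, with some well-known genes added after their values were seen. In simulated data for this comparison (31042 probe sets), 53% of changes of log2 1 and 7% of changes of log2 0.5 were called. The members and lists were chosen with earlier results of these data known. Other scalings, offsets, priors, weights, filters, blocks and covariates and the removal of arrays were tried. The beta-actin and Myl7, Myl4 and Sln covariates and the class block with the trended prior were chosen after seeing the data. The number of arrays limits the precision. Replicates are separate animals per the labels.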

Additional observations from a re-analysis of the deposited data

Results flagged for a closer look

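The Dkk3 signal of diabetic 7 was 12.49, apart from the other 6 diabetic animals, which lay from 11.66 to 12.02. The gap was 0.57 of the group's range, just over Dixon's 95% critical value for 7 samples. Of 20 groups of 7 examined this was the 1 that passed, and chance passes about 5% of them.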

How the results depend on the processing

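The count of 0 called members held under all 29 other settings, and Nppa, Nppb, Npr1 and Npr2 kept their directions in each. The Nppa minus Nppb change, of a pair chosen with its values known, kept its direction in all 23, from 0.74 to 0.93 with permutation p from 0.00291 to 0.0156. The highest p came from the replicate block, whose test can give no smaller p. The pathway count of 1 became 3 with an offset of 200 or with the robust trended prior. It became 2 with the class block, array weights or without the dimmer probe sets, 0 without the 3 dimmest arrays and 7 with the class block and trended prior together. Over all probe sets, 354 calls became 561 with the offset of 200, 645 with the class block, 540 with the trended prior, 560 without the dimmer probe sets, 189 without the 3 dimmest arrays and 1331 with the last combination. The cause was not tested.

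Replicate numbers do not pair the animals: deviations of same-numbered arrays correlated from -0.16 to 0.087. With the replicate block the pathway count was 0 (Pcsk6 adjusted p = 0.0878), 142 probe sets were called and 0 members were called. The Nppa minus Nppb change stayed at 0.83 (sign-flip permutation p = 0.0156, the smallest that test can give). Pcsk6 kept its call with each array left out (adjusted p from 0.00499 to 0.0211). Dkk3 lost its call in 15 of 29 settings.

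Uncalled members reversed. With each array left out, Nppc ran from -0.089 to 0.21, Npr3 from -0.11 to 0.23 and Furin from -0.12 to 0.046. Without the 3 dimmest arrays Npr3 was -0.15 and Furin 0.016. With array weights Nppc was -0.058, Npr3 -0.039 and Furin 0.022. Furin was 0.072 with the atrial covariate and 0.034 with the Myl7, Myl4 and Sln covariate. The Nppa minus Nppb change is a within-array value, for which priors, weights and filters do not apply.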
